A study of Rattus norvegicus with 4 samples.

Results

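The liver's defence against superoxide, hydrogen peroxide and metal ions was followed through 13 genes on a rat cDNA array, measured by 21 of its 1936 probes. The genes are those whose symbol in the array's probe table was Mt1, Nqo1 or Txn1, or began with Sod, Gpx or Prdx followed by a digit. They are the superoxide dismutases Sod1 to Sod3 (6 probes), the glutathione peroxidases Gpx1 to Gpx4 (7 probes), the peroxiredoxins Prdx2, Prdx4 and Prdx6 (5 probes), the metallothionein Mt1, the quinone reductase Nqo1 and the thioredoxin Txn1 (1 probe each). All 13 gene numbers carried the same symbol in the RefSeq gene table.

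Livers came from male Sprague-Dawley rats of 250 to 300 g, taken 12 h after ligation of the common bile duct or after a sham operation that exposed the duct and left it open. No strain, allele or agent separated the groups, and both were operated under ether. Total RNA of 3 rats was mixed per group, poly(A) RNA was purified from it, and 4 arrays with both dyes compared the ligated with the sham mixture. Dyes were swapped: Cy5 marked the ligated pool on arrays 1 and 3, whereas on arrays 2 and 4 it was marked with Cy3. Because animals were pooled, and the arrays may repeat the same pair of pools, p-values rest on spread between arrays and not between rats. In the limma fits that spread comes mostly from all probes or genes together and less from the probe or gene itself. In such a bulk sample, fewer cells of a type and less RNA per cell cannot be told apart.

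Superoxide leaks from respiration and from oxidases, and the superoxide dismutases turn it into hydrogen peroxide. Sod1, with copper and zinc, works mainly in the cytosol, Sod2, with manganese, in the mitochondrial matrix, and Sod3 outside the cell. Glutathione peroxidases, peroxiredoxins and catalase remove the peroxide, and thioredoxin recharges most peroxiredoxins. Metallothioneins are small cysteine-rich proteins that bind zinc and copper. Nqo1 reduces quinones without forming radicals and is a classical target of the transcription factor NRF2. In the liver, bile acids held back by an obstructed duct are known to stress mitochondria.

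Every value is a log ratio as deposited, taken as base 2 and read as ligated over sham on each array, after the array's median over all probes was set to 0. That direction is not stated and is taken as likely, since the labels give the ligated pool as channel 2 on every array. The deposited column medians were -1.26, 0.43, -0.96 and 0.26 for arrays 1 to 4, so centring moved the mean value of every probe by 0.38 upward. At the unnamed positions taken as control spots the medians were -1.62, 0.97, -1.42 and 0.75. Both sets of medians changed sign with the dye of the ligated pool. What this says of the direction of the ratio was not tested. The table holds ratios without intensities, so neither the level of a gene nor its signal over background is known, and the number of arrays limits the precision. Arrays of the same dye orientation correlated at Pearson r = 0.93 and 0.94 across probes. Pairs of opposite orientation gave r between -0.45 and -0.28, a description across probes that are not independent.

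With the ratios read as ligated over sham, most of these genes differed more between dye orientations than between operations. For 17 of the 21 probes both arrays with the ligated pool in Cy5 had the opposite sign to both arrays with it in Cy3, as did 69.5% of the 1648 probes fitted. By gene average this held for 10 of the 13 genes and 68.4% of all 958. The dye term, which is the part of a log2 ratio that changes sign with the dye, had a median of 0.77 over the 21 probes and 0.15 over all probes fitted. It was larger in size than the ligation difference for 18 of the 21. Were the ratios Cy5 over Cy3 instead, these terms would change places, and the ligation difference would be the larger for the same 18. The ligation difference given below is the mean of the 4 arrays, in which a dye effect of equal size in both orientations cancels. Only Gpx2 (higher) and Nqo1 (lower) kept the same sign on all 4 arrays, 2 of 21 probes against 12.1% of all probes. In the Cy5 over Cy3 reading it would be the 17 probes above, against 69.5% of all. Read as ligated over sham, none of the 21 combined the same sign on all 4 arrays with a mean of at least 1.5-fold. Of all probes 5.22% did, and of all gene averages 3.76%.

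**Figure D1:**
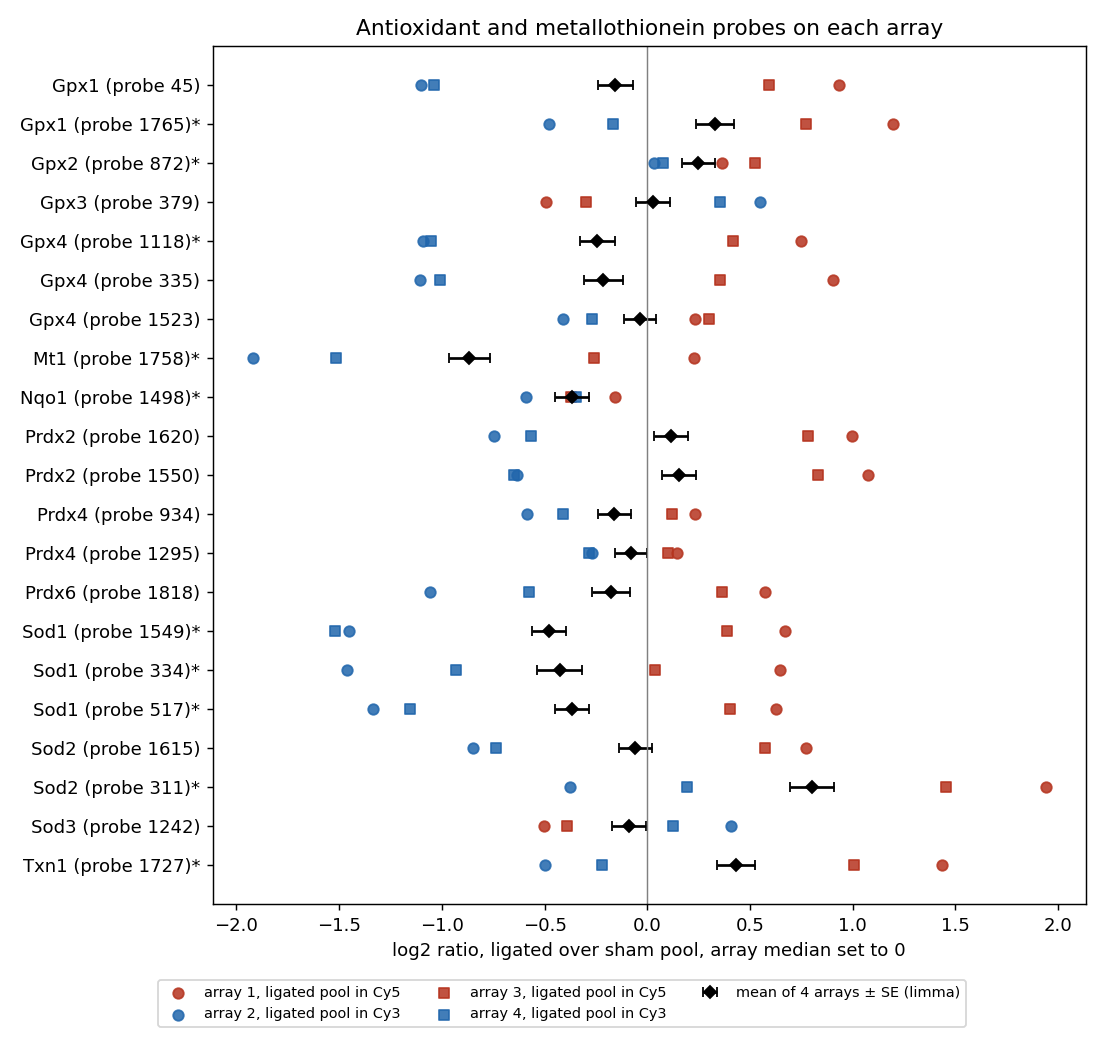
Log2 ratio of the ligated over the sham pool for each of the 21 probes (rows) on each of the 4 arrays, with the array median at 0. Red marks stand for the ligated pool in Cy5 and blue marks for Cy3, black diamonds are the mean of 4 arrays with its limma standard error, and an asterisk marks adjusted p under 0.05. Red and blue lie on opposite sides of 0 for 17 probes, whereas Nqo1 is below 0 and Gpx2 above 0 on every array.

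Of the 21 probes, 4 were higher and 6 lower in the ligated pool at a limma Benjamini-Hochberg adjusted p under 0.05, with the dye as a term of the model. Probes and genes past that threshold are named as called, and probes carry their number in the array's table. Over all 1648 probes 11.8% were higher and 16.1% lower, 27.9% in all. With probes averaged per gene, 3 of the 13 genes were higher (Txn1, Sod2 and Gpx2), 3 were lower (Mt1, Sod1 and Nqo1) and 7 did not pass, while of all 958 genes 11.7% were higher and 15.4% lower, 27.1% in all. Without centring none of the 3 higher genes was called, at 0.049 for Txn1, -0.010 for Sod2 and -0.13 for Gpx2. The median log2 difference was -0.090 over the 13 genes and -0.013 over all genes. The calls went in both directions, and the medians lay close together. Without a dye term in the model limma called none of the 13 genes, and read as Cy5 over Cy3 the values of Mt1, Sod1 and Nqo1 turned positive.

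The share of genes called depended on the dye term, and so does what the count of members can be set against. Of the 240 genes with the lowest dye terms 2.08% were called and the SD of log2 differences across genes was 0.080. Of the 240 with the highest dye terms 48.8% were called and the SD was 0.48. Mt1, Sod1, Sod2, Txn1, Gpx1, Gpx4, Prdx2 and Prdx6 were among the highest, and 4 of these 8 were called, a share close to that background. Gpx3 and Sod3 were among the lowest, and neither was called. Gpx2, Nqo1 and Prdx4 lay in the group next to the highest, where 36.0% of 239 genes and 2 of these 3 were called.

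**Figure D2:**
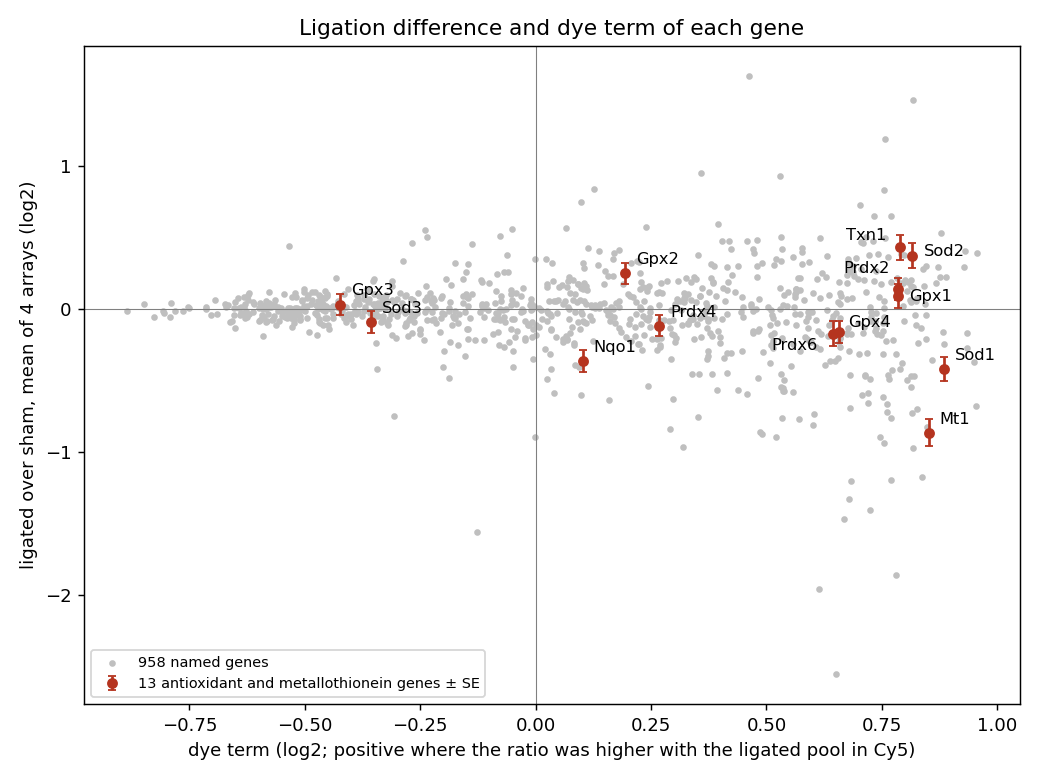
Ligation difference (vertical axis, log2 of ligated over sham, mean of 4 arrays) against the dye term (horizontal axis, log2) for 958 named genes in grey and the 13 defence genes in red with limma standard errors. The grey cloud widens to the right, and Mt1 at -0.87 lies lowest of the 13, Txn1 at 0.43 highest, while Gpx3 and Sod3 sit in the narrow left part.

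Mt1, the metallothionein that binds zinc and copper and is induced by metals, glucocorticoids and inflammation, was the lowest member in the ligated over sham reading. Its log2 ratio was 0.23, -1.92, -0.26 and -1.51 on arrays 1 to 4. It was well below 0 with the ligated pool in Cy3, while the values with Cy5 lay on either side of 0. The mean was -0.87 ± 0.10 (SE, 4 arrays), 1.82-fold lower in the ligated pool, with a limma adjusted p = 1.16e-05. Without arrays 1, 2, 3 and 4 in turn the mean was -0.99, -0.76, -0.74 and -0.97, and without centring -1.25. The call held each time. A fit without 1 array takes its spread still more from all probes, so a kept call does not by itself show stability. Read as Cy5 over Cy3, Mt1 would be at 0.85, among the highest members beside Sod1 at 0.89, and Gpx3 would be lowest at -0.42. A cDNA probe for Mt1 may also bind the closely related Mt2A transcript, so the value may cover both.

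Metallothionein genes are switched on through short metal response elements that bind the zinc-sensing factor MTF1. The 250 bases before the annotated Mt1 start are shown for those elements (chr19:10832976-10833225 of GRCr8, minus strand, RefSeq). Capitals mark matches on either strand to the metal response core TGCNCNC, the antioxidant response core TGACNNNGC, the GC box GGGCGG and the TATA box TATAAA.
Mt1: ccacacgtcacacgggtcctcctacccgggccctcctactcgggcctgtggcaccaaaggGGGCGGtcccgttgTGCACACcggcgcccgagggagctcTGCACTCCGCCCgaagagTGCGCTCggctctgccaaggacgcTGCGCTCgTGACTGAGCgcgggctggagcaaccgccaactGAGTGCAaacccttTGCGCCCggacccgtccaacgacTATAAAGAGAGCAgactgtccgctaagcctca
The window holds 7 matches to the loose metal response core, 1 antioxidant response core, 2 GC boxes and 1 TATA box. One of these matches shares a base with a GC box. The first lies 176 to 170 bases before the start and the last 26 to 20 bases before it, next to the TATA box. The last, GAGAGCA as printed, has T at the fourth base of the core on the opposite strand and so is not a usual core. At least 1 match to the loose core is found in 43.4% of 33469 such rat windows, but 7 or more in 0.0598% of them. A match is a description of the letters, and no binding was measured here.

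Mt3, the metallothionein best known from brain, was at 0.0040 ± 0.080 (SE) as a gene average, with limma adjusted p = 0.98. The copper chaperone of Sod1, Ccs, was at -0.20 ± 0.07, with limma adjusted p = 0.0559. Of 13 genes listed for metallothionein and for zinc or copper handling, these 2 and Mt1 were the 3 measured. Of them 1 was lower, against 15.4% of all genes.

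Nqo1, which reduces quinones with electrons from NADH or NADPH, had nearly no dye term (0.10). Its log2 ratio was -0.16, -0.59, -0.37 and -0.35 on arrays 1 to 4, below 0 on each. The mean was -0.37 ± 0.08 (SE), 1.29-fold lower in the ligated pool, with a limma adjusted p = 0.00403 among all probes. The probe call was lost without array 2 (-0.31, adjusted p = 0.0598). In the fit of gene averages Nqo1 was called without each array in turn, at -0.42, -0.31, -0.31 and -0.43 without arrays 1, 2, 3 and 4.

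Of 21 genes listed as other NRF2 targets, regulators or related factors, 4 were measured. In the limma test 1 was higher, 1 was lower and 2 did not pass, while of all genes 11.7% were higher and 15.4% lower. Gclm and glutathione transferases, among them NRF2 targets, are counted with the glutathione genes below, of which 2 were higher and 3 lower. The efflux pump Abcc2 was at 0.30 ± 0.08 (adjusted p = 0.0168), though at -0.086 and not called without centring. Its call was also lost when array 1 (0.19, adjusted p = 0.0976) or array 2 (0.27, adjusted p = 0.0753) was left out and with print-block centring (0.22, adjusted p = 0.115). Abcc4, a pump of the basolateral membrane, was at -0.30 ± 0.08 (adjusted p = 0.0106), not called when array 2 (-0.25, adjusted p = 0.0975) or array 3 (-0.23, adjusted p = 0.0692) was left out. Sqstm1 was at -0.20 ± 0.07 (adjusted p = 0.0627). Nfe2 was at -0.13 ± 0.07 (adjusted p = 0.238) and below 0 on all 4 arrays. Apart from Abcc2 the measured genes thus lay below 0, with a median of -0.16 over the 4.

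Txn1, the cytosolic thioredoxin that reduces disulfides in peroxiredoxins and other proteins, was at 1.43, -0.50, 1.01 and -0.22 on arrays 1 to 4. The arrays with the ligated pool in Cy5 lay above 0 and those with Cy3 below it, but farther above than below. The mean log2 ratio was 0.43 ± 0.09 (SE), 1.35-fold higher in the ligated pool, with a limma adjusted p = 0.00245. It stayed called without each array in turn, at 0.32, 0.50, 0.54 and 0.36 without arrays 1, 2, 3 and 4. Without centring it was 0.049 (adjusted p = 0.597), so the call rests on where 0 is set. No gene of the list of other thioredoxin and glutaredoxin genes, such as the reductase Txnrd1, was among the 958 named genes.

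The cytosolic superoxide dismutase Sod1 lay below the mitochondrial Sod2 on every array. Sod1 was measured by 3 probes, and all were lower in the ligated pool. Probe 1549 had log2 ratios of 0.67, -1.45, 0.39 and -1.52 on arrays 1 to 4, with a mean of -0.48 ± 0.08 (SE, limma adjusted p = 0.000482). Probe 517 had 0.63, -1.34, 0.40 and -1.16, with a mean of -0.37 ± 0.08 (adjusted p = 0.00363).
Probe 334 had 0.65, -1.46, 0.038 and -0.93, with a mean of -0.43 ± 0.11 (limma adjusted p = 0.00857). On each probe the arrays with the ligated pool in Cy3 lay farther below 0 than those with Cy5 lay above it. Leaving out array 2 gave probe 334 a value of -0.29 (adjusted p = 0.0732) and leaving out array 3 a value of -0.27 (adjusted p = 0.0708), neither of them called. Averaged over its probes, Sod1 was at -0.42 ± 0.08, 1.34-fold lower, with limma adjusted p = 0.00177. Its probe means spanned 0.11, below the median span of 0.13 over the 340 genes with more than 1 probe.

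The probes of Sod2 differed from each other. Probe 311 had log2 ratios of 1.94, -0.38, 1.45 and 0.19 on arrays 1 to 4, with a mean of 0.80 ± 0.11 (SE), 1.74-fold higher in the ligated pool (limma adjusted p = 4.54e-05). Probe 1615 had 0.77, -0.85, 0.57 and -0.74, with a mean of -0.059 ± 0.081 (adjusted p = 0.713). Probe 311 lay above probe 1615 on all 4 arrays, by 1.17, 0.47, 0.88 and 0.93. Of the 261 genes with 2 probes, 98.1% had a smaller gap between probe means than the 0.86 of Sod2. Mitochondrial Sod2 is transcribed into messages of different length in the rat, and which of them each probe binds was not tested. The mean over both probes was 0.37 ± 0.09 (limma adjusted p = 0.00529), a call lost without array 1 (0.29, adjusted p = 0.0614), without array 4 (0.29, adjusted p = 0.0569) and without centring.

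Setting Sod1 against Sod2 within each array removes the zero point of that array, and their dye terms were alike. The dye term was 0.89 for Sod1 and 0.81 for Sod2. Sod1 minus Sod2 was -0.71, -0.80, -0.74 and -0.93 on arrays 1 to 4, with a mean of -0.80 ± 0.10 (SD, n = 4). Relative to sham, Sod1 was thus 1.74-fold lower than Sod2 in the mean of the 4 arrays and of each gene's probes. The sign held on each array and in both dye orientations (-0.72 with the ligated pool in Cy5 and -0.87 with Cy3). The exact two-sided sign-flip permutation test gave p = 0.125, the smallest value that 4 arrays allow.

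Each of the 6 pairs of a Sod1 and a Sod2 probe gave a negative difference on each array, 24 of 24 values, from -1.71 to -0.11. The size depended on the Sod2 probe. Against probe 311 the mean differences of the 3 Sod1 probes lay between -1.28 and -1.17, and against probe 1615 between -0.42 and -0.31. The 24 values share 5 probes and 4 arrays, and the difference does not say which gene changed. Both genes were among the 240 with the highest dye terms, where log2 differences had an SD of 0.48 across genes. How many pairs of such genes keep the same sign on all 4 arrays was not tested. Read as Cy5 over Cy3, the differences would alternate in sign between the orientations and average 0.071 (exact permutation p = 0.75).

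**Figure D3:**
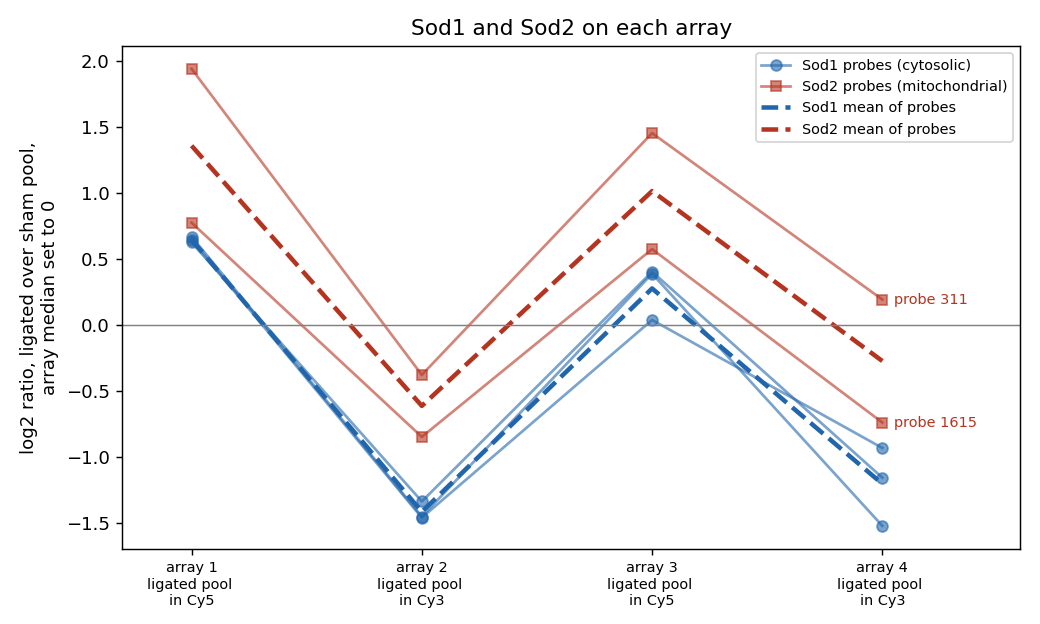
Log2 ratio of the ligated over the sham pool (array median at 0) for the 3 Sod1 probes in blue and the 2 Sod2 probes in red on each array, with the mean of each gene's probes dashed. The Sod1 lines lie below both Sod2 lines on all 4 arrays, by -1.71 to -0.11 per pair, and all lines swing with the dye of the ligated pool.

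The windows of 250 bases before the Sod1 and Sod2 starts are shown because the contrast between these genes held its sign on every array. Sod1 lies at chr11:42942573-42942822 (plus strand) and Sod2 at chr1:50050169-50050418 (minus strand), both of GRCr8 from RefSeq. Capitals mark the same motifs as for Mt1.
Sod1: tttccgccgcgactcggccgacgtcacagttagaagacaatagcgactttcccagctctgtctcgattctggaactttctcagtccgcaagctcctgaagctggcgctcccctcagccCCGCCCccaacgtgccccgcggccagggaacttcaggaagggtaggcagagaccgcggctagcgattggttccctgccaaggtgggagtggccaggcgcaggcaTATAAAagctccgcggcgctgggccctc
Sod2: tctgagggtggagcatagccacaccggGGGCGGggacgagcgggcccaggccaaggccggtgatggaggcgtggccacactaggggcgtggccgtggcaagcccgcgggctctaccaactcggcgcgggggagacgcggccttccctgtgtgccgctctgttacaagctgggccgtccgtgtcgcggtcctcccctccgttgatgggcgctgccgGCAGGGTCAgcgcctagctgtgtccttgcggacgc
The Sod1 window holds a TATA box 28 to 23 bases before the start and 1 GC box. The Sod2 window holds 1 GC box and an antioxidant response core on the opposite strand, 35 to 27 bases before the start, and no match to TATAAA. Over all windows the TATA box is found in 12.9%, the GC box in 30.5% and the antioxidant response core in 10.1%. Neither window holds a metal response core.

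Sod3, the dismutase secreted into the extracellular space, had log2 ratios of -0.50, 0.41, -0.39 and 0.13 on arrays 1 to 4. Its dye term ran the other way (-0.36), as did that of only Gpx3 among the other members. The mean was -0.090 ± 0.083 (SE, limma adjusted p = 0.537).

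By the smallest Euclidean distance over the 4 centred arrays, the genes nearest to Sod1 were Hdgfl3 (0.17), the cytochrome Cyp2d4 (0.19) and the plasma protein vitronectin, Vtn (0.21), against a median distance of 1.93 over all genes. Nearest to Sod2 were its fellow member Txn1 (0.15), the inter-alpha-trypsin inhibitor chain Itih3 (0.17) and Nisch (0.19), against a median of 1.86. These distances over 4 arrays hold the dye term as well as the ligation difference.

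Glutathione peroxidases use glutathione to reduce peroxides, Gpx1 in the cytosol and mitochondria, Gpx2 mainly in gut epithelium, Gpx3 in plasma and Gpx4 on lipid peroxides in membranes. Of their 7 probes, 2 were higher, 1 was lower and 4 did not pass, while of all probes 11.8% were higher and 16.1% lower. Gpx2 was at 0.36, 0.032, 0.52 and 0.075 on arrays 1 to 4, above 0 on each but close to it with the ligated pool in Cy3. Its mean log2 ratio was 0.25 ± 0.08 (SE, limma adjusted p = 0.0302). Without array 2, 3 or 4 it was 0.26, 0.21 or 0.24 and no longer called (adjusted p = 0.133, 0.0845 and 0.191), and without centring it was -0.13.

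The 2 probes of Gpx1 differed. Probe 1765 had 1.20, -0.48, 0.77 and -0.16 on arrays 1 to 4, with a mean of 0.33 ± 0.09 (SE, limma adjusted p = 0.0143). It was no longer called when array 1 was left out (0.23, adjusted p = 0.0834), when array 4 was (0.25, adjusted p = 0.151) or without centring (-0.050). Probe 45 had 0.93, -1.10, 0.59 and -1.04, with a mean of -0.15 ± 0.08 (adjusted p = 0.218), and was called lower without array 1 (-0.24, adjusted p = 0.0437). Probe 1765 lay above probe 45 on all 4 arrays, by 0.49 on average, a gap larger than in 90.0% of genes with 2 probes. The gene average of 0.088 ± 0.083 (adjusted p = 0.524) therefore stands for neither probe.

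Gpx4, which protects membranes from lipid peroxidation, was measured by 3 probes, and 1 passed. Probe 1118 had log2 ratios of 0.75, -1.09, 0.42 and -1.05 on arrays 1 to 4, with a mean of -0.24 ± 0.08 (SE, limma adjusted p = 0.0441). Probe 335 had 0.90, -1.11, 0.36 and -1.01, with a mean of -0.21 ± 0.09 (adjusted p = 0.118), but -0.35 and called without array 1 (adjusted p = 0.00531) and -0.078 without array 3. Probe 1523 was at -0.035 ± 0.079 (adjusted p = 0.844). The call of probe 1118 was lost without array 2, 3 or 4 (adjusted p = 0.195, 0.199 and 0.15). Gpx3, the plasma peroxidase made mainly in kidney, had -0.49, 0.55, -0.30 and 0.36, with a mean of 0.029 ± 0.082 (adjusted p = 0.887).

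Peroxiredoxins reduce hydrogen peroxide through a reactive cysteine, Prdx2 in the cytosol, Prdx4 in the endoplasmic reticulum and Prdx6 with activity toward phospholipid hydroperoxides. None of their 5 probes passed the limma test, against 27.9% of all probes, and none had an unadjusted p under 0.05. Prdx2 was at 0.16 ± 0.08 and 0.12 ± 0.08 (SE) on its probes, with a gap of 0.039 between them. Prdx4 was at -0.16 ± 0.08 and -0.077 ± 0.078. Prdx6 had log2 ratios of 0.57, -1.06, 0.36 and -0.58 on arrays 1 to 4 and a mean of -0.17 ± 0.09 (adjusted p = 0.206). As gene averages the 3 peroxiredoxins ranged from -0.17 for Prdx6 to 0.14 for Prdx2, and without array 4 Prdx6 was called lower (-0.29, adjusted p = 0.0477).

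**Figure D4:**
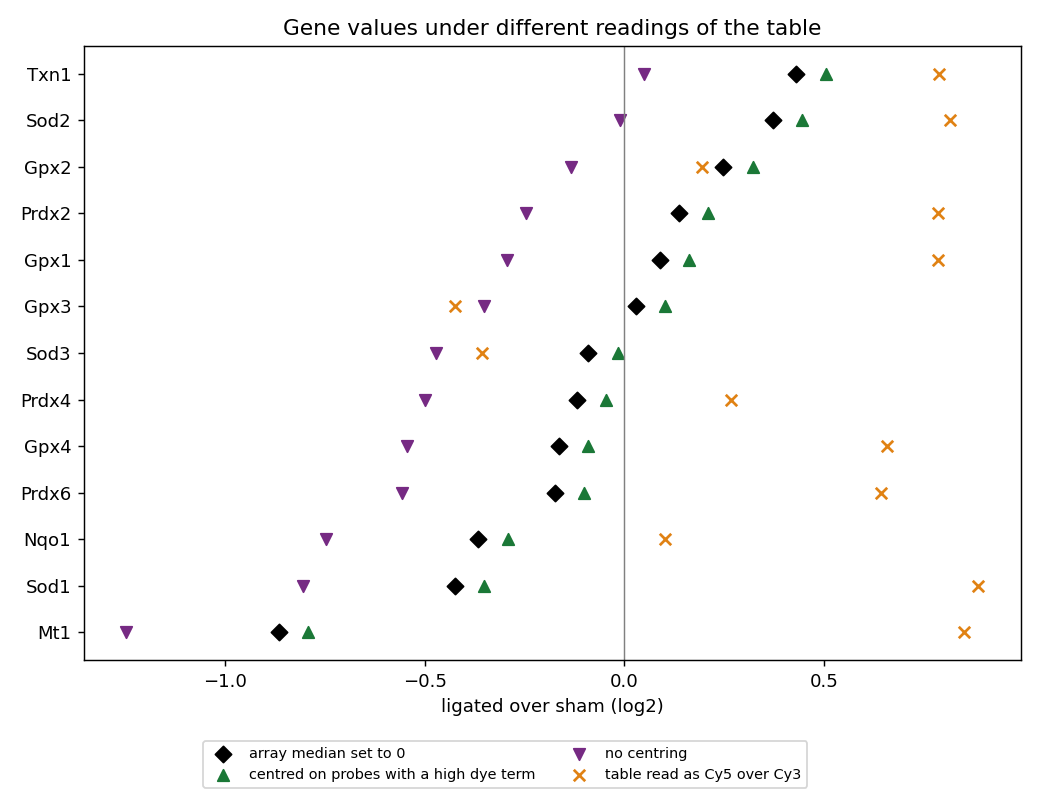
Ligation difference (log2, ligated over sham) of the 13 genes under 4 readings of the table, with the array medians at 0 (black), centred on probes with a high dye term (green), without centring (purple) and read as Cy5 over Cy3 (orange). Mt1, Sod1 and Nqo1 lie below 0 in the first 3 readings and above it in the fourth, and Txn1 lies at 0.43 with centring and 0.049 without it.

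Around these genes, 26 further genes of redox and metal metabolism were measured, of which 4 were higher and 6 lower (limma on gene averages), 10 of 26 against 27.1% of all genes. Their median log2 difference was -0.073. Of 4 measured sources of superoxide or hydrogen peroxide, 2 were lower. The mitochondrial monoamine oxidase Maob, which makes hydrogen peroxide as it breaks down amines, was at -0.37, -0.80, -0.73 and -1.46 on arrays 1 to 4, below 0 on each, with a mean of -0.84 ± 0.10 (SE, adjusted p = 4.72e-05). The peroxisomal hydroxyacid oxidase Hao2 was at -0.46 ± 0.08 (adjusted p = 0.000535), with probes at -0.85 and -0.064. The NADPH oxidase subunit Cyba was at 0.016 ± 0.074 (adjusted p = 0.922).

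Of 8 genes of glutathione synthesis, recycling and transfer, 2 were higher, 3 lower and 3 did not pass. The shares over all genes were 11.7% higher and 15.4% lower. The higher genes were Mgst1 (0.40 ± 0.08) and Gclm, and the lower genes Gstm2 (-0.82 ± 0.10), Gsta2 (-0.46 ± 0.08) and Gstt1. The value of Mgst1 was close to the 0.38 by which centring moved every value up. The modifier subunit of the first synthetic enzyme, Gclm, was at 0.22 ± 0.07 (SE, limma adjusted p = 0.0379), but at -0.16 without centring. It was not called when array 2, 3 or 4 was left out (adjusted p = 0.122, 0.101 and 0.257). The transferase Gstt1 was at -0.27 ± 0.08 (adjusted p = 0.0171) and below 0 on all 4 arrays, though its probes lay at -0.51 and -0.025. This call was lost when array 3 or 4 was left out (adjusted p = 0.0792 and 0.13) and with print-block centring (adjusted p = 0.0537). The peptidase Ggt1, which cleaves extracellular glutathione and serves as a serum marker of cholestasis, was at 0.016 ± 0.074 (adjusted p = 0.921).

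Of 5 genes for heme breakdown and iron or copper carriage, 1 was higher, against 11.7% of all genes. It was transferrin, Tf, at 0.37 ± 0.08 (SE, limma adjusted p = 0.00304). Tf was above 0 only with the ligated pool in Cy5. Centring moved every value up by 0.38, about the size of the Tf difference. The biliverdin reductase Blvra was at -0.19 ± 0.07 (adjusted p = 0.0705) and ceruloplasmin, Cp, at -0.13 ± 0.08 (adjusted p = 0.281), and neither passed. The NADPH-forming malic enzyme Me1 was at 0.13 ± 0.08 (adjusted p = 0.301). The respiratory chain was measured by Cox8a (-0.097 ± 0.076, adjusted p = 0.425) and the ATP synthase subunit Atp5pb (-0.14 ± 0.09, adjusted p = 0.326), and neither passed. Mitochondrial Sod2 was thus measured beside only 2 other genes of that list.

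Of 4 measured hepatocyte markers 3 were higher (Ttr, Apoa1 and Serpina1), none of them called without centring. The fourth, Pck1, went the other way, at -0.22 ± 0.08 and below 0 on all 4 arrays, but was not called (limma adjusted p = 0.0709). Serpina1 lost its call when any array was left out, and Ttr when array 1, 2 or 4 was. Of 11 markers of other cells, 1 was higher (Timp1) and 4 were lower (Cd53, Col1a1, Kdr and Ece1). Over all genes 11.7% were higher and 15.4% lower. The 2 other measured endothelial markers, Cdh5 (0.093 ± 0.079) and Tek (-0.036 ± 0.073), did not pass. The probes of Col1a1 lay at -0.42 and -0.051, and those of Serpina1 at 0.032 and 0.38. Timp1 and Ece1 were called without each array in turn, but Cd53 and Col1a1 were not when array 2, 3 or 4 was left out. Without centring Timp1 was at -0.034 and not called (limma adjusted p = 0.771), so its call rests on where 0 is set. The endothelial receptor Kdr, at -0.33, was at -0.26 without array 1 (limma adjusted p = 0.149) and at -0.20 without array 2 (adjusted p = 0.242). Of 10 listed cholangiocyte markers 2 were measured and neither passed. The part of cell composition in the values above was not tested, and ratios give no level by which the tissue itself could be checked.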

How the data were processed

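The table deposited by the authors holds a log ratio, used here as log2, for 1936 probes on each of 4 two-colour arrays. Not given in the sources used here are scanning, background correction, normalization, the direction of the ratio and the base of its logarithm. Were the base e, true log2 differences would be larger than those printed. Each array was centred on its median. The 288 spots at the 18 positions that the probe table leaves unnamed in each of 16 print blocks were taken as control spots and left out. The effects of ligation and dye were estimated per feature by limma 3.58.1 under R 4.3.3 (lmFit, eBayes, Benjamini-Hochberg adjustment, threshold 0.05), once over the 1648 remaining probes and once over 1174 features in which probes of the same single symbol were averaged (958 genes and 216 other probes). The prior SD was 0.17 on 11.7 degrees of freedom for probes and 0.16 on 10.4 for genes, with 2 residual degrees of freedom. The p-values thus lean mainly on the prior. Residual SDs lay above it for the called probes of Mt1 (0.32) and Txn1 (0.25), Sod1 probe 334 (0.40), Sod2 probe 311 (0.38) and Gpx1 probe 1765 (0.26). Their SEs were drawn down by limma. For the other called member probes the residual SD lay below the prior. Sod1 and Sod2 were compared within arrays by an exact sign-flip test. The fit was also run on simulated data with independent errors drawn from the fitted prior, and the outcome is not given here. Such data meet the model's assumptions, so they cannot test the direction of the ratio, the centring or repeated pools.

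Every member gene and probe is named. Of the companion lists, named genes are those called with the same sign on all 4 arrays, at most 3 in each direction per list, and at most 2 others, the first by alphabet. Called cell markers and the 3 genes nearest to Sod1 and to Sod2 are also named. Pck1, Tf, Mgst1, Gsta2, Gstm2, Nfe2, Sqstm1, Cdh5 and Tek are named besides, and their values under the other settings are not listed. Genes and lists were chosen with earlier results of these data known. Alternatives covered the arrays, the dye term, the direction, the centring, quantile normalization, the spots fitted and the prior. A fit without 1 array has fewer residual degrees of freedom and leans still more on the prior. A call kept in such a fit therefore does not by itself show stability. Promoter windows came from RefSeq, with 11 of 13 genes matched. Probe symbols came from the platform annotation, with 1432 probes of 1 symbol, 19 of several and 485 unnamed.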

Additional observations from a re-analysis of the deposited data

How the results depend on the processing

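The number of member probes called was 10 (4 higher, 6 lower) and lay between 6 and 11 when each array was left out in turn, with 6 without array 2. For gene averages the count of 6 was 5 each time, and the companion count of 10 lay between 7 and 9. Without the dye term limma called 0 of 21 probes, 0 of 13 genes and 0 of 26 companion genes (0, 0 and 1 at an unadjusted p under 0.05), since the dye then counts as error. Without centring 18 probes (1 higher, 17 lower), 10 genes and 20 companion genes were called, the genes all lower, because every value moved down by 0.38. Read as Cy5 over Cy3, 20 probes (18 higher), 12 genes and 22 companion genes were called, where the dye term takes the place of the ligation difference. Sod1 minus Sod2 was -0.82 to -0.75 when 1 array was left out, -0.77 with print-block centring and -0.61 with quantile normalization (the cause was not tested), and its exact p was at the smallest possible value in each. It was -0.36 against the Sod2 probe nearer to Sod1, -1.23 against the other, and 0.071 read as Cy5 over Cy3. Quantile normalization, print-block centring, all spots, named probes only, a robust prior and the centrings added after seeing the data (on the upper quartile of the dye term, or without control positions) left the calls of all 13 gene averages as they were. By probe, Gpx4 probe 1118 lost its call under quantile normalization, print-block centring and both added centrings, and Gpx2 under the upper-quartile centring.

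Values that changed direction without centring were Gpx1 -0.29, Gpx2 -0.13, Gpx3 -0.35, Prdx2 -0.25, Sod2 -0.010, Abcc2 -0.086, Apoa1 -0.0039, Cyba -0.37, Gclm -0.16, Ggt1 -0.37, Me1 -0.25, Mt3 -0.38, Serpina1 -0.18, Timp1 -0.034 and Ttr -0.13. By probe they were -0.050 for Gpx1 probe 1765, -0.13 for Gpx2 probe 872, -0.35 for Gpx3 probe 379, -0.27 for Prdx2 probe 1620 and -0.23 for Prdx2 probe 1550. This list and the next leave out the genes whose values under the other settings are not listed, such as Tf, Gsta2 and Gstm2.

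Read as Cy5 over Cy3, the values that changed direction were Mt1 0.85, Sod1 0.89, Nqo1 0.10, Gpx3 -0.42, Gpx4 0.66, Prdx4 0.27, Prdx6 0.64, Abcc4 0.45, Atp5pb 0.83, Blvra 0.21, Ccs 0.20, Cd53 0.27, Cox8a 0.75, Cp 0.71, Cyba -0.0040, Cyp2d4 0.86, Ece1 0.84, Ggt1 -0.57, Hao2 0.53, Hdgfl3 0.95, Maob 0.29, Me1 -0.36, Mt3 -0.34, Serpina1 -0.19, Timp1 -0.00049 and Vtn 0.82. By probe they were 0.92 for Gpx1 probe 45, -0.42 for Gpx3 probe 379, 0.83, 0.84 and 0.30 for Gpx4 probes 1118, 335 and 1523, 0.85 for Mt1 probe 1758, 0.10 for Nqo1 probe 1498, 0.34 and 0.20 for Prdx4 probes 934 and 1295, 0.64 for Prdx6 probe 1818, 1.01, 0.77 and 0.88 for Sod1 probes 1549, 334 and 517, and 0.73 for Sod2 probe 1615.

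No paired analysis was possible because no second group of arrays shares the replicate numbers, each ratio already setting both pools against each other within an array. Precision is limited by 4 arrays, signal over background is unknown, and a filter on dim probes could not be applied.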
